A study of Arabidopsis thaliana with 32 samples.

Results

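The genes described here are 52 Arabidopsis thaliana genes of cytosolic translation. They were chosen by gene identifier, and all 52 of them were found among the 28394 gene identifiers of the monosome and polysome tables. They fall into 9 role classes, which are the cap-binding eIF4F complex (8 genes), eIF2 (4), eIF3 (13), eIF5A and eIF6 (4), eIF1, eIF1A, eIF5 and eIF5B (9), poly(A)-binding proteins (3), the elongation factors eEF1A and eEF2 (5), TCTP (1), and the regulators GCN2, TOR, RAPTOR1, S6K1 and S6K2 (5).

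Translation starts when eIF4F binds the capped end of an mRNA, when eIF2 brings the initiator tRNA to the small ribosomal subunit, and when eIF3, eIF1 and eIF1A hold that subunit while it scans for a start codon. The kinase GCN2 phosphorylates the α subunit of eIF2 and so lowers initiation, and the kinase TOR, with its partner RAPTOR1, drives translation through S6 kinase. Both kinases are known to answer to nutrients and stress in plants, and mRNA that carries a single ribosome (monosome) is separated from mRNA that carries several (polysome) on a sucrose gradient.

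All samples were whole seedlings, 10 days old, of the Col-0 accession or in lines made in it. The study asked how mitochondrial calcium and respiration bear on translation in the cytosol. Polyadenylated RNA of the monosome and of the polysome fraction was sequenced from 5 groups, 32 libraries in all. Untreated wild type Col-0 gave 4 replicates per fraction and each other group gave 3. 2OX is 1 transgenic line that carries MCU2, a mitochondrial calcium uniporter gene, fused to YFP behind the 35S promoter. The sextuple mutant carries mutations in MCU1 to MCU6 that were joined by crossing, and is a knockdown with residual transcript. Wild type in liquid medium received antimycin A (AA), an inhibitor of the respiratory chain, at 50 µM for 5 h by the labels and for 4 h by the methods, or DMSO in its place. By the methods these seedlings were moved to liquid medium overnight in darkness first, whereas Col-0, 2OX and the sextuple mutant came directly from agar plates. The 2OX tables hold Col-0 replicates 2, 3 and 4 and the sextuple tables Col-0 replicates 1, 2 and 4, so that both comparisons share 2 of 3 controls in each fraction. The labels state that RNA of the fractions was pooled and do not state that replicates were separate cultures, so p-values measure only the spread between these samples.

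Each value is an adjusted signal per gene and library, scaled by the authors within a table, and its depth in reads is unknown. Summed values lay between 21400000 and 45100000 per library, with 4.08% to 21.03% on nuclear genes annotated as ribosomal RNA. The mean correlation of a library with its own group was 0.930 to 0.981. MCU2 was at 549 to 800 in the 3 monosome libraries of 2OX against 177 to 269 in Col-0, and at 763 to 999 against 196 to 227 in polysomes, where reads of the transgene are counted too (log2 change 1.58 and 2.04, limma adjusted p = 0.0118 and 3.00e-05). In polysomes of the sextuple mutant MCU1, MCU3 and MCU6 had changes of -1.08, -0.72 and -1.12, and none passed adjustment (limma adjusted p = 0.162, 0.0990 and 0.0651). Those of MCU2 and MCU4 were -0.28 and -0.24 (limma adjusted p = 0.630 and 0.938). MCU5 was too low to be tested, near 0 in monosomes of the sextuple mutant against 7.69 to 16.4 in its controls, but at 6.42 to 8.03 in polysomes against at most 9.88. Of 6 root markers, 3 fell and 1 rose in monosomes after AA, with summed values of 1815 to 2280 against 2409 to 2935 after DMSO. In polysomes 4 of 5 tested root markers fell, with sums of 484 to 890 against 1597 to 1727, whereas 2 of 5 tested shoot markers rose in monosomes and 0 in polysomes. None of these markers was at 0, and their part in the changes below was not tested. In RNA of whole seedlings, fewer cells of a type and less RNA per cell cannot be told apart.

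Few of the 52 genes moved with AA. In monosomes 7 of 52 genes passed the test (13.5%), 6 higher and 1 lower, where 22% of all 21095 genes tested did (11.6% higher and 10.4% lower). In polysomes 4 of 52 passed (7.69%), 3 higher and 1 lower, where 18.8% of 20614 genes did (8.48% and 10.4%). The median level of the members (mean log2 value) was 11.8 in monosomes and 12.2 in polysomes, beside 8.67 and 8.45 over all genes. Of genes at or above the median member in level, 33.5% passed in monosomes and 17.0% in polysomes. Without adjustment, 16 and 10 members had a p under 0.05, beside 33.9% and 32.2% of all genes. The largest rises were those of an eIF1 gene and an eIF5A gene, which rose 1.74-fold to 2.07-fold in both fractions. The test was limma on log2(value + 1) over all genes of a table, with Benjamini-Hochberg adjustment and a threshold of 0.05, and a change below is the fitted log2 difference on that scale with its standard error. The median change of the 52 genes was 0.08 in monosomes and -0.04 in polysomes, beside -0.02 and 0.01 over all genes tested. Leaving out 1 library moved these medians over 0.036 to 0.15 and -0.093 to 0.017, and the polysome median was above 0 without AA replicate 1. Of the 52 genes 2 passed in both fractions and 43 in neither, where 11.2% and 69.8% of the 20258 genes tested in both fractions did.

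**Figure D1:**
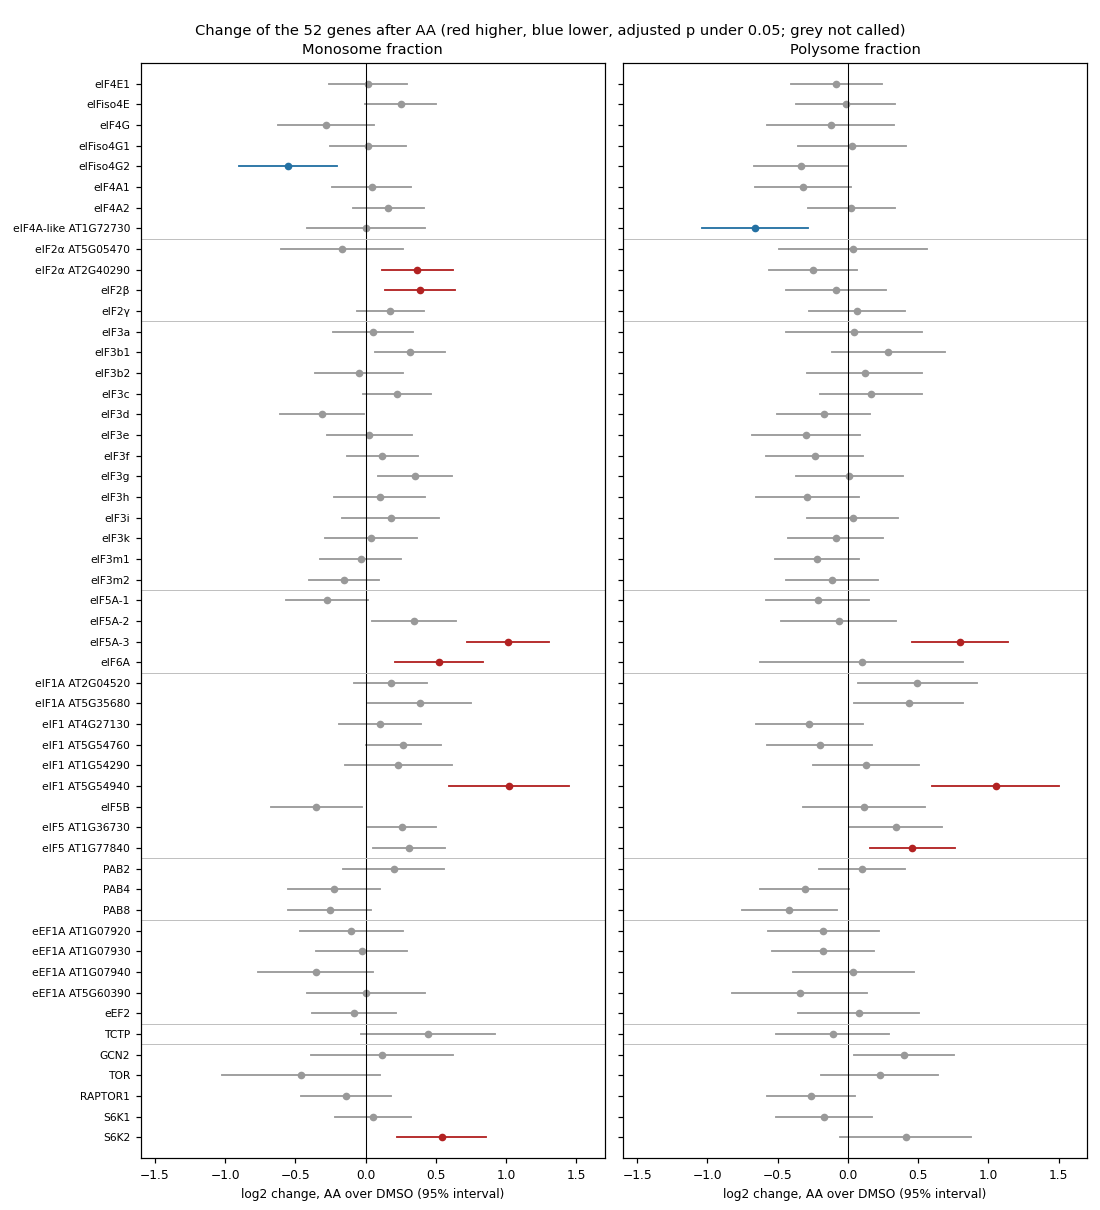
Log2 change after AA over DMSO of each of the 52 genes in monosome RNA (left) and polysome RNA (right), grouped by role class, with the fitted value as a point and its 95% interval as a line. The 7 and 4 genes that passed the test are in red (higher) or blue (lower), and the intervals of eIF5A-3 and of the eIF1 gene AT5G54940 lie above 0 in both panels.

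Among the 9 genes of eIF1, eIF1A, eIF5 and eIF5B, 1 rose in monosomes and 2 in polysomes, and none fell. AT5G54940 (chr5:22307982-22309453, RefSeq TAIR10.1) is 1 of 4 genes for eIF1, the factor that guards start codon choice. Its values in AA replicates 1, 2 and 3 were 20041, 22501 and 34237 in monosomes, against 10255, 11011 and 16415 after DMSO. In polysomes they were 51868, 48240 and 31383, against 19308, 20978 and 21789. Every AA library was above every DMSO library in both fractions, and AA replicate 3 was the highest of its group in monosomes and the lowest in polysomes. The log2 change was 1.02 ± 0.20 in monosomes (2.03-fold, limma adjusted p = 0.00156) and 1.05 ± 0.21 in polysomes (2.07-fold, limma adjusted p = 0.00407). The other 3 eIF1 genes ranged from 0.10 to 0.27 in monosomes and from -0.27 to 0.13 in polysomes, and none of them passed.

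AT1G77840 (chr1:29268336-29270700) is 1 of 2 genes for eIF5, which triggers GTP hydrolysis by eIF2 at the start codon. Its polysome values were 3100, 3187 and 3465 after AA and 2288, 2354 and 2446 after DMSO, so that the groups did not overlap. The change was 0.46 ± 0.14 (1.37-fold, limma adjusted p = 0.0384), and the call was lost without any 1 DMSO library or without AA replicate 2. In monosomes its values were 2768, 2352 and 2512 against 2118, 2085 and 1945, also apart, with a change of 0.31 (limma adjusted p = 0.0774). The second eIF5 gene, AT1G36730, had changes of 0.26 and 0.34 that did not pass. The smallest polysome change of the class was that of eIF5B, which joins the ribosomal subunits, at 4484, 4229 and 6216 against 4993, 5239 and 3538 (0.12 ± 0.20). The 2 eIF1A genes, whose product acts with eIF1 in scanning, had polysome changes of 0.49 and 0.43 (limma adjusted p = 0.0989 and 0.118).

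In the class of eIF5A and eIF6, 2 of 4 genes rose in monosomes and 1 in polysomes. eIF5A relieves ribosomes that stall during elongation, and eIF5A-3 (AT1G69410, chr1:26089030-26090734) is 1 of 3 genes for it. Its values after AA were 5548, 5464 and 5816 in monosomes against 2649, 2345 and 3461 after DMSO, and 14967, 12377 and 13204 in polysomes against 7119, 7487 and 8765. No AA library overlapped a DMSO library. The change was 1.01 ± 0.14 in monosomes (2.02-fold, limma adjusted p = 5.79e-05) and 0.80 ± 0.16 in polysomes (1.74-fold, limma adjusted p = 0.00416). The gene shares 5 annotated bases with its neighbour AT1G69400, whose changes were -0.11 and -0.55.

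Its paralogue eIF5A-2 stood at 25944, 26107 and 26617 in monosomes after AA against 21335, 18754 and 21990 (0.34 ± 0.14, limma adjusted p = 0.0952). In polysomes eIF5A-2 stood at 73037, 72708 and 59143 against 69884, 68070 and 75476, the smallest change of the class (-0.06 ± 0.19), and the groups overlapped. eIF5A-1 had changes of -0.28 and -0.21. eIF6A (AT3G55620, chr3:20634057-20636555) encodes eIF6, which keeps the large subunit from joining too early. Its monosome values were 27437, 24387 and 22009 after AA against 19221, 15708 and 16446, a change of 0.52 ± 0.15 (1.44-fold, limma adjusted p = 0.0174). This call was lost without AA replicate 1, AA replicate 2 or DMSO replicate 2. In polysomes AA replicates 1 and 2 stood at 56715 and 55844 and replicate 3 at 20361, below all DMSO libraries at 41430, 34120 and 37209. The polysome change was 0.10 ± 0.33 with all libraries and 0.59 without AA replicate 3 (limma adjusted p = 0.868 and 0.0173), so that 1 library decided it.

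**Figure D2:**
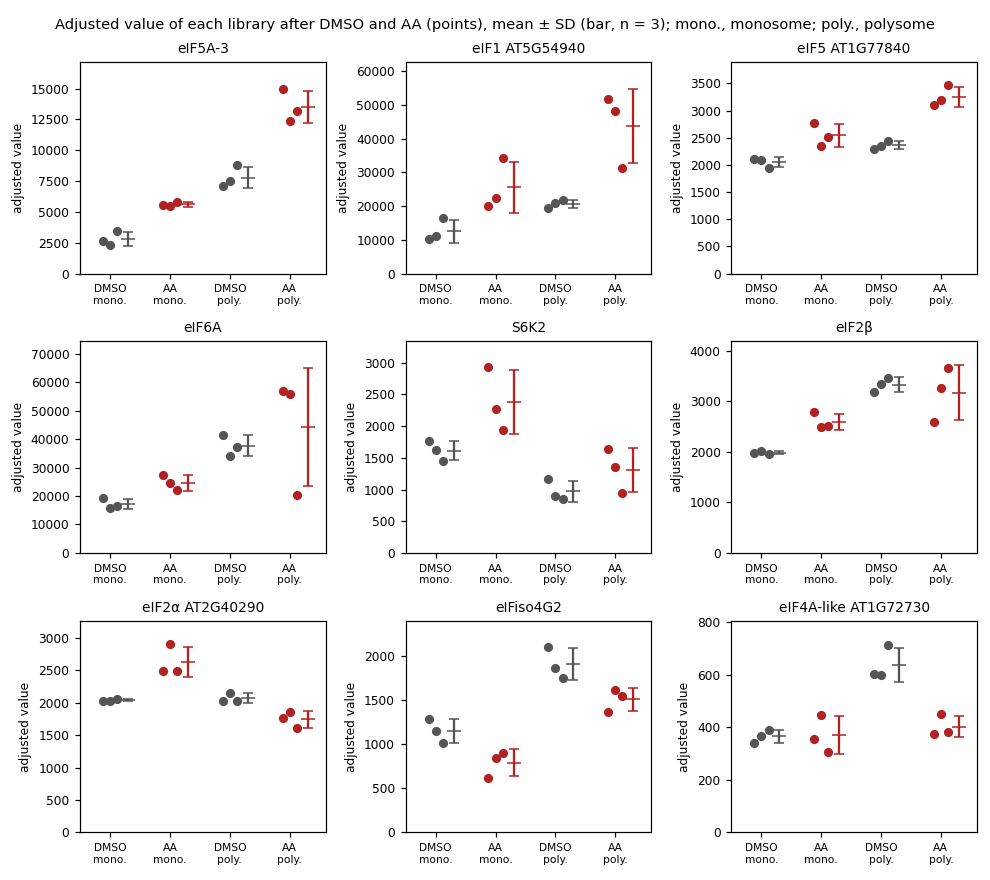
Adjusted value in each library (points) with the mean ± SD of 3 replicates (bars) after DMSO (grey) and AA (red) in monosome and polysome RNA, for the 9 genes that passed the test in at least 1 fraction. eIF5A-3 and the eIF1 gene AT5G54940 are apart in both fractions, eIF6A has 1 AA polysome library at 20361, and the eIF4A-like gene AT1G72730 is apart in polysomes, with the AA libraries at 376 to 449, and mixed in monosomes.

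Of the 4 genes of eIF2, which carries the initiator tRNA, 2 rose in monosomes and 0 passed in polysomes. AT2G40290 is 1 of 2 genes for the α subunit, the target of GCN2. It (chr2:16828766-16831226) stood at 2493, 2903 and 2495 in monosomes after AA and at 2033, 2021 and 2054 after DMSO, with no overlap and a change of 0.37 ± 0.12 (1.29-fold, limma adjusted p = 0.037). In polysomes it ran the other way, at 1768, 1854 and 1604 against 2025, 2156 and 2031, and the groups again did not overlap (-0.25 ± 0.14, limma adjusted p = 0.252). AT5G05470, the second α gene, stood at 261, 309 and 314 against 312, 305 and 378 in monosomes and at 351, 536 and 629 against 392, 602 and 467 in polysomes, with overlap in both. Its changes were -0.17 (95% interval -0.60 to 0.26) and 0.03 (-0.49 to 0.56). The β subunit gene AT5G20920 (chr5:7094649-7097145) stood at 2783, 2497 and 2506 against 1973, 2017 and 1963 in monosomes (0.39 ± 0.12, 1.31-fold, limma adjusted p = 0.0257). In polysomes its values of 2582, 3266 and 3663 overlapped those after DMSO, 3176, 3345 and 3464 (-0.08 ± 0.16). The monosome calls of AT2G40290 and of the β gene are the least firm of the 7, since each was kept in 1 of 6 fits that left out a library. AT2G40290 shares 118 annotated bases with the ferritin gene FER4 (changes 0.19 and -0.44, neither passing), and the strand of counting is not given in the sources used here.

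In the eIF4F complex 1 gene fell in monosomes and another in polysomes, and none rose. eIFiso4G2 (AT2G24050, chr2:10225225-10228698), a plant scaffold that joins the cap-binding protein to the helicase, stood at 615, 844 and 902 in monosomes after AA against 1282, 1144 and 1011 (-0.55 ± 0.16, 0.681-fold, limma adjusted p = 0.0227). Its polysome values were 1360, 1616 and 1543 against 2102, 1855 and 1752, lower in 3 of 3 libraries (-0.34 ± 0.15, limma adjusted p = 0.149). The monosome call was lost without AA replicate 1, DMSO replicate 1 or DMSO replicate 2. AT1G72730 (chr1:27377759-27380182), a gene of the eIF4A RNA helicase family, had the largest polysome fall of the 52 genes, at 376, 449 and 384 against 602, 599 and 712 (-0.66 ± 0.17, 0.633-fold, limma adjusted p = 0.0194). This call was lost without any 1 DMSO library. In monosomes its values of 357, 448 and 306 overlapped the 340, 368 and 390 after DMSO (0.00 ± 0.20). The helicase genes eIF4A1 and eIF4A2 had polysome changes of -0.32 and 0.02 that did not pass. The smallest polysome change of the class was that of the cap-binding protein eIFiso4E, at 2878, 3476 and 4056 against 3385, 3345 and 3712 (-0.02 ± 0.16).

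None of the 13 genes of eIF3, the scaffold on the small subunit, passed in either fraction, with 3 and 0 at an unadjusted p under 0.05. Their changes ran from -0.31 to 0.35 in monosomes and from -0.30 to 0.29 in polysomes. eIF3e had the largest polysome change, at 6917, 7015 and 4698 after AA against 7933, 7383 and 7255 (-0.30 ± 0.18, limma adjusted p = 0.271), and all 3 AA libraries were below all DMSO libraries. eIF3g had the smallest, at 3592, 4728 and 5534 against 4237, 4638 and 4672 (0.01 ± 0.17). In monosomes eIF3g stood at 3239, 4034 and 3902 against 2942, 2701 and 3098 (0.35 ± 0.12, limma adjusted p = 0.0546), just outside the threshold.

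The 3 poly(A)-binding proteins, which hold the tail of the mRNA, and the 5 elongation factor genes likewise gave 0 calls by limma in both fractions, with 1 poly(A)-binding protein gene at an unadjusted p under 0.05 and 0 elongation factor genes. PAB8 stood at 5153, 5943 and 6306 in polysomes after AA against 8651, 7691 and 6931, with no overlap (-0.42 ± 0.16, limma adjusted p = 0.083). PAB2 stood at 9380, 9109 and 9711 against 8759, 8736 and 8840, higher in 3 of 3 libraries by a small amount (0.10 ± 0.14). Among the genes for eEF1A, which delivers aminoacyl-tRNA to the ribosome, AT5G60390 had the largest polysome change, at 77909, 98176 and 116578 against 124370, 133839 and 109378 (-0.34 ± 0.22). AT1G07940 had the smallest, at 18699, 20315 and 25603 against 23594, 23406 and 16277 (0.04 ± 0.20), and both overlapped. eEF2, which moves the ribosome along by a codon, had changes of -0.08 and 0.08. The eEF1A, eIF4A, eIF1, eIF5A and S6K genes have close copies, so that reads may have been split between them by a counting rule not given in the sources used here.

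TCTP encodes a conserved growth-related protein. Its monosome values were 105542, 117731 and 88237 after AA and 68795, 90966 and 69635 after DMSO, and AA replicate 3 lay below DMSO replicate 2 (0.44 ± 0.23, limma adjusted p = 0.182). Its polysome values were 30685, 30800 and 42218 against 37281, 34373 and 39038 (-0.11 ± 0.18). The groups overlapped in both fractions.

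Of the 5 regulators, S6K2 alone passed the test after AA, in monosomes. S6K2 (AT3G08720, chr3:2648372-2651231), a kinase that TOR activates, stood at 2926, 2266 and 1936 against 1759, 1630 and 1452 (0.54 ± 0.15, 1.46-fold, limma adjusted p = 0.0152). In polysomes it stood at 1633, 1349 and 942 against 1161, 890 and 856, and AA replicate 3 fell inside the range after DMSO. The polysome change was 0.41 ± 0.21 (limma adjusted p = 0.209) and 0.63 without AA replicate 3 (limma adjusted p = 0.00977), while the monosome call was lost without AA replicate 1 (limma adjusted p = 0.092). Its neighbour and paralogue S6K1 stood at 4428, 5006 and 3836 against 4636, 4137 and 3962 in monosomes and at 2615, 2161 and 1960 against 2496, 2349 and 2699 in polysomes, with overlap in both (0.05 ± 0.13 and -0.17 ± 0.16).

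GCN2 was apart in polysomes, at 692, 662 and 754 after AA against 589, 503 and 507, and mixed in monosomes, at 294, 304 and 523 against 363, 270 and 375. Its polysome change of 0.40 ± 0.16 did not pass (95% interval 0.04 to 0.76, limma adjusted p = 0.113), and its monosome change was 0.12 ± 0.24. GCN2 shares 946 annotated bases with GUN4 on the other strand, which was too low in polysomes to be tested. TOR, with the widest standard error of the regulators in monosomes, stood at 442, 218 and 428 against 451, 650 and 367 in monosomes and at 1172, 1220 and 1427 against 1112, 1366 and 841 in polysomes. Its changes were -0.46 ± 0.27 and 0.22 ± 0.19, with 95% intervals of -1.02 to 0.10 and -0.19 to 0.64. RAPTOR1 stood at 724, 628 and 647 against 671, 731 and 799 in monosomes and at 1228, 1341 and 1343 against 1568, 1625 and 1510 in polysomes. Every polysome library of RAPTOR1 was lower after AA, but its change of -0.27 ± 0.14 did not pass (limma adjusted p = 0.227).

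Read as groups that do not overlap, 17 of 52 genes were apart in monosomes after AA (15 higher and 2 lower), where 37.4% of all genes were (18.4% and 19%). In polysomes 18 were apart (8 higher and 10 lower), where 37.7% of all genes were (18% and 19.7%). Both totals lay below that background, while by direction the members that were higher in monosomes (28.8%) lay above theirs and those that were lower (3.85%) below it. In polysomes the shares by direction were 15.4% and 19.2%. The background covers genes of every level, and members and background were not matched in level here.

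The change in translational efficiency (TE), which is the polysome change minus the monosome change, was tested as the interaction of group and fraction. The fractions of a replicate were not paired in this fit. After AA none of the 52 genes passed by limma, where 0.887% of 21769 genes did, and 4 had an unadjusted p under 0.05, where 11.9% of all genes did. Of genes at or above the median member in level, 2.88% passed. The fitted TE change was below 0 for 34 of 52 genes, where 46.4% of all genes were below 0, with a median of -0.10 beside 0.04 over all genes. The median was -0.022 without AA replicate 1 and lay between -0.141 and -0.091 without any other library. The 4 genes were AT2G40290 (-0.62 ± 0.17, limma adjusted p = 0.12), AT1G72730 (-0.66 ± 0.25, limma adjusted p = 0.295), the eIF2 β gene (-0.47 ± 0.19, limma adjusted p = 0.331) and the eIF1 gene AT5G54760 (-0.47, limma adjusted p = 0.396). TE changes of the regulators ran from -0.23 for S6K1 to 0.68 for TOR (95% interval -0.07 to 1.44), and that of eIF1 AT5G54940 was 0.03 ± 0.32. Intervals of TE were wide, with a median half-width of 0.48, and 46 of 52 lay within 1 log2 unit of 0.

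In 2OX none of the 52 genes passed in monosomes, polysomes or TE by limma, where 0.0866%, 0.171% and 0.00486% of all genes did. Unadjusted p-values under 0.05 were found for 2, 1 and 1 of the 52 genes, where 4.9%, 5.76% and 1.65% of all genes had them. In the sextuple mutant the count was again 0 in all 3 fits, where 0.101%, 0.149% and 0% of all genes passed, with 1, 5 and 1 at an unadjusted p under 0.05 beside 5.6%, 10% and 3.55% of all genes. The changes were small, from -0.34 to 0.52 (monosome) and -0.34 to 0.37 (polysome) in 2OX, and from -0.57 to 0.38 and -0.37 to 0.45 in the sextuple mutant. The 95% intervals lay within 1 log2 unit of 0 for 51 and 52 of 52 genes in 2OX and for 50 and 52 in the sextuple mutant, so that a doubling or halving lay outside them. They lay within a 1.5-fold change for fewer, 31 and 48 genes in 2OX and 37 and 45 in the sextuple mutant. Groups were apart for 4 and 5 of 52 genes in 2OX, where 10% and 10.5% of all genes were, and for 7 and 7 in the sextuple mutant, where 10.7% and 15.2% were.

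**Figure D3:**
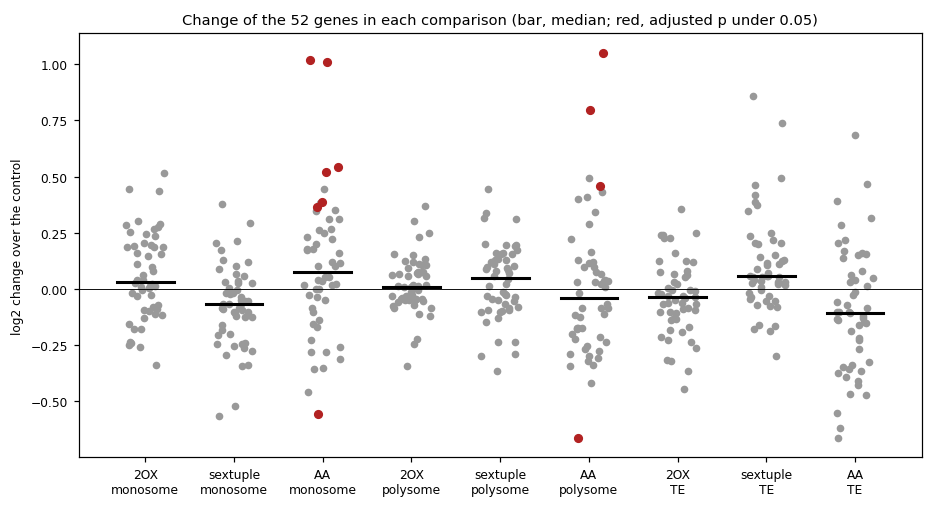
Log2 change of each of the 52 genes (points) in monosome RNA, polysome RNA and TE for 2OX and the sextuple mutant over Col-0 and for AA over DMSO, with the median as a bar. Red points passed the test, 7 in AA monosomes and 4 in AA polysomes, and every point of 2OX and of the sextuple mutant is grey.

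None of the 5 regulators passed in either line. GCN2 stood at 143, 77 and 69 in monosomes of 2OX against 135, 130 and 72 in Col-0, and at 293, 206 and 279 against 283, 262 and 225 in polysomes. In the sextuple mutant it stood at 84, 132 and 59 against 160, 160 and 84 in monosomes and at 372, 356 and 285 against 295, 336 and 267 in polysomes. The groups overlapped in all 4 cases, and the widest change, -0.57 in monosomes of the sextuple mutant, had an interval of -1.31 to 0.18. TOR stood at 217, 214 and 167 against 220, 119 and 120 in monosomes of 2OX and at 1211, 655 and 763 against 694, 746 and 543 in its polysomes. TOR in the sextuple mutant stood at 185, 232 and 169 against 207, 261 and 140 in monosomes and at 1065, 941 and 698 against 522, 823 and 644 in polysomes. Replicate 1 was the highest polysome library of both lines for TOR, and the change of 0.45 ± 0.19 in the sextuple mutant had an unadjusted p of 0.029 (limma adjusted p = 0.441).

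RAPTOR1 had the widest TE change of the 52 genes in any of the 3 comparisons, 0.86 ± 0.29 in the sextuple mutant (unadjusted p = 0.00795 by limma), and it did not pass adjustment. It stood at 191, 244 and 313 against 344, 447 and 281 in monosomes (-0.52) and at 1338, 1111 and 1125 against 737, 1121 and 1002 in polysomes (0.34), with overlap in both. In 2OX RAPTOR1 stood at 319, 280 and 287 against 377, 411 and 240 and at 1347, 891 and 985 against 945, 1276 and 844, again with overlap. Neither S6 kinase passed in a line. S6K1 in polysomes stood at 554, 617 and 609 in the sextuple mutant against 779, 725 and 683 (-0.30 ± 0.14, limma adjusted p = 0.494) and at 511, 491 and 533 in 2OX against 611, 604 and 575 (-0.22 ± 0.14, limma adjusted p = 0.964). The groups were apart in both, with controls shared in part. In monosomes S6K1 stood at 1081, 993 and 1233 against 1296, 1265 and 1335 in the sextuple mutant and at 994, 688 and 1209 against 1068, 819 and 1143 in 2OX. S6K2 stood at 178, 148 and 205 against 215, 239 and 216 in polysomes of 2OX (-0.34 ± 0.19) and at 200, 220 and 211 against 241, 205 and 308 in its monosomes. S6K2 of the sextuple mutant stood at 436, 244 and 328 against 355, 286 and 359 in monosomes and at 278, 248 and 276 against 325, 255 and 256 in polysomes, with changes of -0.02 and -0.05.

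Neither eIF2α gene passed in either line. AT2G40290 stood at 882, 667 and 751 in monosomes of 2OX against 653, 508 and 788, and at 670, 755 and 801 against 632, 629 and 794 in polysomes. In the sextuple mutant it stood at 1172, 733 and 810 against 868, 774 and 921 and at 989, 765 and 1033 against 932, 751 and 942. Its 4 changes lay between 0.06 and 0.25, with overlap each time. AT5G05470 stood at 65, 68 and 79 against 74, 51 and 52 in monosomes and at 117, 101 and 128 against 83, 96 and 113 in polysomes of 2OX. In the sextuple mutant it stood at 97, 51 and 79 against 107, 88 and 61 and at 188, 169 and 115 against 143, 99 and 134, where its intervals reached from -0.95 to 0.59 and from -0.19 to 0.82. The intervals of this gene were wider than those of AT2G40290.

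TCTP stood at 20462, 28273 and 34580 against 19669, 20973 and 26659 in monosomes and at 11199, 12136 and 11456 against 11821, 13074 and 11772 in polysomes of 2OX. In the sextuple mutant it stood at 22962, 18687 and 22091 against 22035, 23304 and 31154 and at 10193, 13447 and 13738 against 15686, 14030 and 13972. All 3 polysome libraries of the sextuple mutant were below their controls (-0.24 ± 0.14, limma adjusted p = 0.608). The largest 2OX change of the 52 genes was that of eIF3i in monosomes, at 3267, 3543 and 4544 against 2574, 2336 and 2989 (0.52, limma adjusted p = 0.88).

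The genes that moved with AA were set against the lines by a test of the difference itself, in which AA and each line share no library. eIF5A-3 stood at 410, 422 and 430 in monosomes of 2OX against 456, 662 and 498, and at 502, 662 and 524 in the sextuple mutant against 617, 541 and 582. Its AA change was larger than its 2OX change by 1.35 ± 0.23 in monosomes and 0.78 ± 0.23 in polysomes, and larger than its sextuple change by 1.06 ± 0.21 and 0.82 ± 0.19 (limma adjusted p = 0.000952, 0.0457, 0.00236 and 0.00713). The polysome difference from 2OX was kept in only 5 of 13 alternative fits. The eIF1 gene AT5G54940 stood at 9957, 8822 and 11110 in polysomes of 2OX against 13999, 9356 and 12341, and at 14618, 11418 and 12440 in the sextuple mutant against 18259, 16615 and 14648, so that every sextuple library was below its controls (-0.37, limma adjusted p = 0.4). Its AA change exceeded the 2OX change by 1.20 ± 0.28 and 1.29 ± 0.28 and the sextuple change by 1.09 ± 0.27 and 1.42 ± 0.26 (limma adjusted p = 0.0111, 0.00669, 0.0135 and 0.00148). Against the sextuple mutant the eIF2 β gene differed in monosomes by 0.65 ± 0.20 (limma adjusted p = 0.0445) and AT1G72730 in polysomes by -0.86 ± 0.23 (limma adjusted p = 0.0178). The eIF2 β call was kept in only 3 of 13 alternative fits and that of AT1G72730 in 12. Part of the eIF2 β difference is its sextuple change of -0.26, which did not pass. In all, 2 of 52 genes differed from 2OX in each fraction, where 6.24% and 8.56% of all genes did, and 3 differed from the sextuple mutant in each, where 8% and 13.4% did. GCN2, TOR, RAPTOR1, S6K1 and S6K2 did not pass any of these 4 tests. The smallest limma adjusted p among them was 0.077, in monosomes against 2OX and in polysomes against the sextuple mutant. The widest differences of the regulators in these 2 tests were -0.89 for TOR and -0.60 for RAPTOR1.

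**Figure D4:**
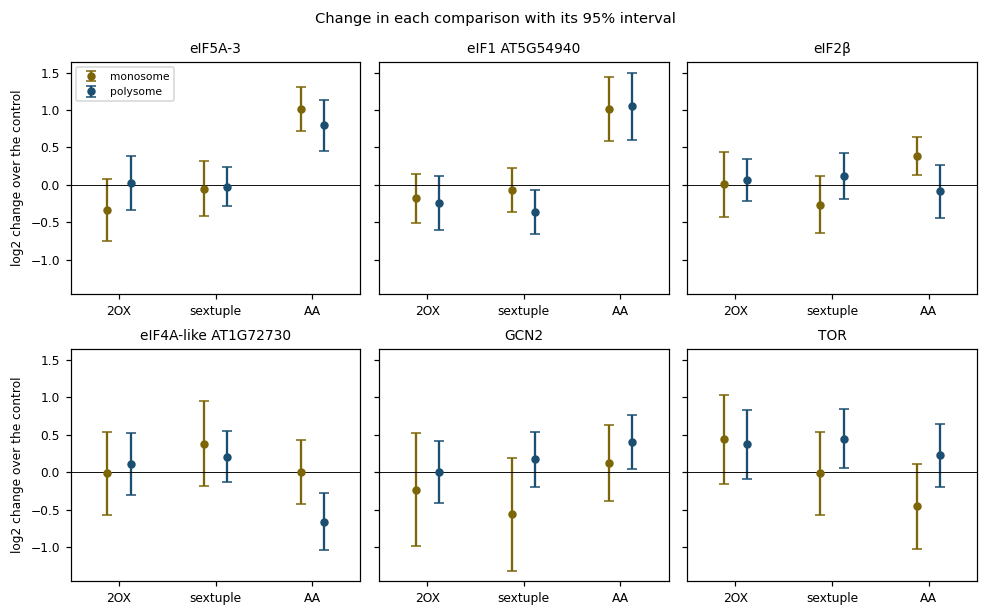
Log2 change over the control with its 95% interval in 2OX, the sextuple mutant and AA, in monosome (ochre) and polysome (blue) RNA, for the 4 genes whose AA change differed from that of a line and for GCN2 and TOR. eIF5A-3 and AT5G54940 lie near 1 after AA and near or below 0 in both lines, while the intervals of GCN2 and TOR overlap across the comparisons. Overlap of intervals is not a test of the difference.

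The genes differed widely in how their mRNA was spread over the gradient. The log2 ratio of polysome to monosome value was taken within each replicate relative to the median gene, which removes the scaling of the tables. After DMSO 43 of the 52 genes lay above the median gene, with a median of 0.68 over all 52. In untreated Col-0 35 did, with medians of 0.25 and 0.31 for the libraries of the 2OX and sextuple tables. The highest were eIF5A-2 (1.94 ± 0.08, SD, n = 3), the scaffold eIF4G (1.91 ± 0.23), the cap-binding protein eIF4E1 (1.68 ± 0.02), the eIF1A gene AT5G35680 (1.66 ± 0.21) and eIF5A-3 (1.64 ± 0.16), and neighbours in this order lay within their spread of each other. The lowest were PAB2 (-1.76 ± 0.20), PAB4 (-1.05 ± 0.16), TCTP (-0.88 ± 0.32), S6K1 (-0.59 ± 0.20) and S6K2 (-0.58 ± 0.13). PAB2 lay below PAB4 beyond their spread, and the neighbours above it did not differ beyond theirs. All 8 eIF4F genes, all 4 eIF2 genes and all 4 genes of eIF5A and eIF6 lay above 0, against 10 of 13 eIF3 genes and 1 of 3 poly(A)-binding protein genes. In Col-0 all genes of eIF4F and of eIF5A and eIF6 did too, but 3 of 4 eIF2 genes, 7 or 6 of 13 eIF3 genes and 0 of 3 poly(A)-binding protein genes.

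The regulators split, with TOR (1.35 ± 0.11), RAPTOR1 (1.26 ± 0.14) and GCN2 (0.84 ± 0.21) above the median gene and both S6 kinases below it. In untreated Col-0, replicates 2, 3 and 4, TOR was at 1.77 ± 0.47, eIF5A-2 at 1.78 ± 0.26, PAB2 at -1.55 ± 0.25, TCTP at -1.25 ± 0.28 and S6K1 at -1.13 ± 0.27. The order of the 52 genes after DMSO and in these Col-0 libraries, which share no library, had a Pearson correlation of 0.937 and a Spearman correlation of 0.932 across genes, which are not independent replicates. With AA the ratio of AT2G40290 was -0.43 ± 0.06 against 0.18 ± 0.06 after DMSO, and that of AT1G72730 was 0.29 ± 0.22 against 0.96 ± 0.10. These genes are named because their fitted TE falls were the largest of the 52. Neither passed the test of TE (limma adjusted p = 0.12 and 0.295). The Spearman correlation of the ratio with coding length (52 genes of 339 to 7446 bases) was weak and was not tested. It was -0.24 after DMSO, -0.06 after AA, -0.09 in 2OX and -0.17 in the sextuple mutant. In Col-0 of the 2OX and sextuple tables it was -0.15 and -0.26.

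**Figure D5:**
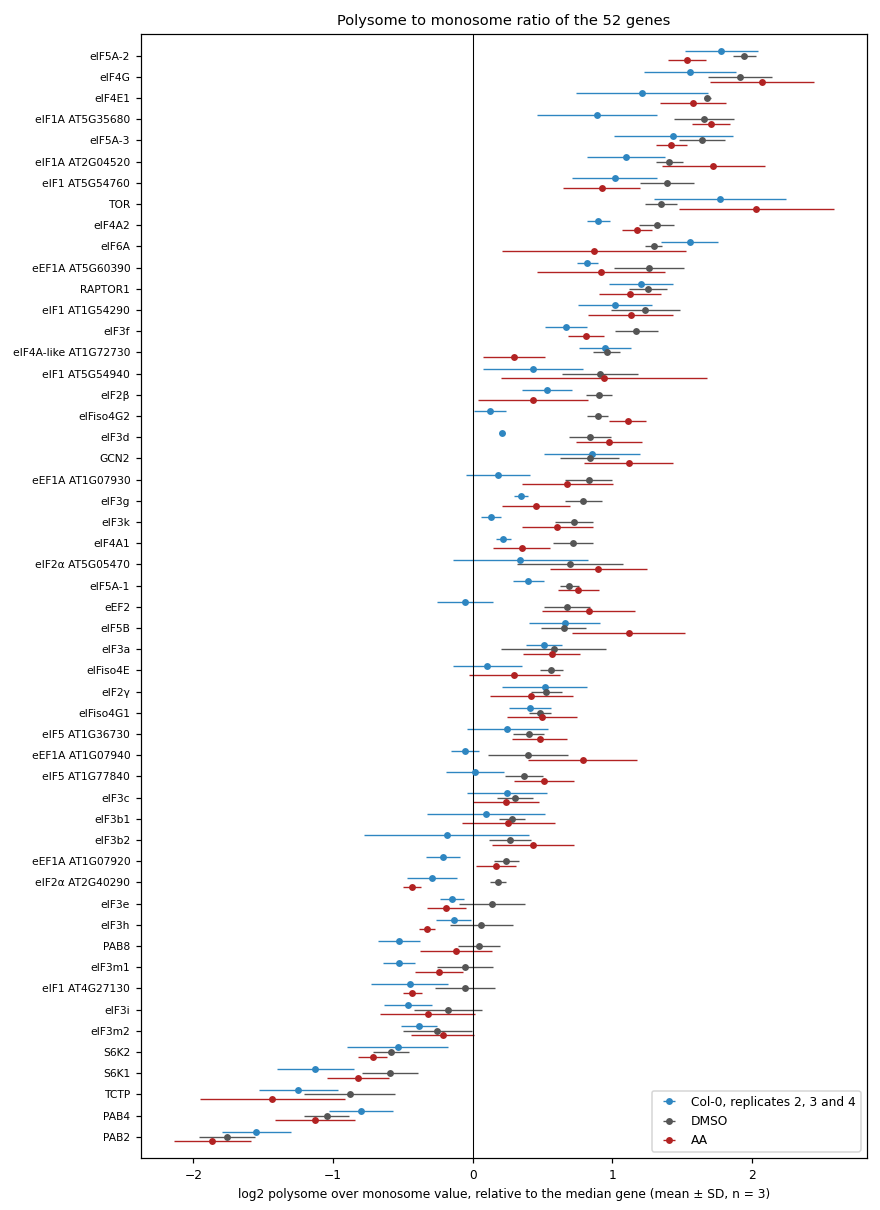
Log2 ratio of polysome to monosome value relative to the median gene for each of the 52 genes, mean ± SD of 3 replicates, in untreated Col-0 (blue), after DMSO (grey) and after AA (red), ordered by the DMSO mean. The genes run from PAB2 at -1.76 to eIF5A-2 at 1.94 after DMSO. The grey and red points of AT2G40290 and of AT1G72730 are apart, but neither gene passed the test of TE.

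Other genes of the same pathways were counted from lists. After AA 22% of all genes tested passed in monosomes and 18.8% in polysomes, and the counts below were not tested against these shares. After AA 2 of 5 tested GCN2 partners and ABCF proteins rose in monosomes, ABCF5 (0.68 ± 0.16, limma adjusted p = 0.00498) and ABCF4 (0.37 ± 0.12, limma adjusted p = 0.0371), and ABCF5 rose in polysomes as well (0.80 ± 0.18, limma adjusted p = 0.0102). None of the 9 tested eIF2B genes, which recycle eIF2, passed, and none of the 3 (monosome) and 4 (polysome) tested genes of other poly(A)- and cap-binding proteins. Of 11 other elongation and termination factors only the termination factor ERF1-1 rose, by 0.38 ± 0.12 in monosomes and 0.68 ± 0.19 in polysomes (limma adjusted p = 0.0326 and 0.0239). Of 16 other initiation factors only EIF4B1, a partner of the eIF4A helicase, rose, by 0.57 ± 0.14 in monosomes (limma adjusted p = 0.00879). Of 18 genes of the TOR and SnRK1 pathway, 3 passed in monosomes and 0 in polysomes. These were AKINBETA1, a SnRK1 subunit (0.70 ± 0.17), the autophagy gene ATG13 (0.66 ± 0.16) and SNF4, another SnRK1 subunit (-0.42 ± 0.14). In the lines the only call on these lists was AT1G09640, a γ subunit of the eEF1B exchange factor, which was higher in polysomes of the sextuple mutant (0.76 ± 0.12, limma adjusted p = 0.00966). There 0.149% of all genes passed.

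The stretch of 250 bases before the annotated gene start was read from RefSeq TAIR10.1 for all 52 genes and searched on both strands for the telo-box AAACCCTA and for TGGGCC and TGGGCT, short elements known from promoters of plant translation genes. Of the 52 stretches 22 overlap another annotated gene and 30 are free of other genes, and all were searched in full. The telo-box was in 5 of 52 stretches (9.615%) and in 4.486% of those of 27443 protein-coding genes. TGGGCC was in 13 (25%) against 13.65%, TGGGCT in 11 (21.15%) against 12.33%, and either of them in 18 (34.62%) against 19.18%. Both the telo-box and 1 of the other motifs were in 4 of 52 (7.692%) against 1.363%. No telo-box was found before the 9 genes that passed after AA. The stretches before the eIF1 and eIF5 genes that rose in polysomes are shown beside that of eEF2, which holds all 3 motifs and did not pass. These 3 stretches are examples, and a link between motifs and the change after AA was not tested. They are written 5′ to 3′ on the strand of the gene, with motifs in either orientation in capitals, and lie at chr5:22309454-22309703 (minus strand), chr1:29268086-29268335 (plus strand) and chr1:20971743-20971992 (minus strand).
eIF1 AT5G54940: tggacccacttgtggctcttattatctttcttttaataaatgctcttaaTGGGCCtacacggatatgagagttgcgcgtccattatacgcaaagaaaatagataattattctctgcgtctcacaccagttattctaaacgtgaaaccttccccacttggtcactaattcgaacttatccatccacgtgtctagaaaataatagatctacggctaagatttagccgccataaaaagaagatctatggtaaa
eIF5 AT1G77840: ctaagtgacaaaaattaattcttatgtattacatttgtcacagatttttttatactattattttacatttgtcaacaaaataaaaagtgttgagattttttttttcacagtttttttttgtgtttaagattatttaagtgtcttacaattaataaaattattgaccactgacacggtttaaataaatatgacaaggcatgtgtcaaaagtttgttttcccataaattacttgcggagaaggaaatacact
eEF2 AT1G56070: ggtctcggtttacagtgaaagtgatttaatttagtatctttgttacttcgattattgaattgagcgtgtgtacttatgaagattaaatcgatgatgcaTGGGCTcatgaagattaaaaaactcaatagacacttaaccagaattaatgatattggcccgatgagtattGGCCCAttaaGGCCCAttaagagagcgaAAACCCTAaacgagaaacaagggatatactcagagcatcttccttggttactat
The first holds 1 TGGGCC, the second none of the 3 motifs, and the third 1 telo-box, 2 TGGGCC and 1 TGGGCT. A match is a description of the letters and not evidence of a bound site.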

How the data were processed

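Monosome and polysome RNA of Arabidopsis seedlings was sequenced by the authors in 32 libraries of 10 groups. The submitters' processing notes name Bowtie 0.12.2 and TAIR10, while the counting rule, its use of strand and the scaling are not given in the sources used here. The deposited values are an adjusted signal per gene and library, scaled separately in each table. They are not whole reads, since the low values of a library fell on a common step in 7.62% to 100% of cases (median 18.5%), so depth is unknown and no count test was run. Columns of the authors' own comparisons (fold changes, p-values and the like) were not used. All 72 value columns were assigned to a sample or group by name.

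Values were tested as log2(value + 1) with limma 3.58.1 (R 4.3.3, trended variance) within each table, over genes at 10 or more in at least 3 libraries, with two-sided p-values and Benjamini-Hochberg adjustment at 0.05. TE was tested as the interaction of group and fraction, and AA was set against each line as a difference of changes. The main TE fit treated all libraries as separate and did not pair the fractions of a replicate. The fits were tested on simulated data. Tables were handled in Python 3.11.15 with pandas 2.3.3. Replicate numbers come from the sample titles. Deviations of same-numbered libraries from their group means correlated between fractions (0.12 to 0.46 in 2OX, 0.11 to 0.31 with AA, and 0.011 to 0.32 with the sextuple mutant, where Col-0 replicate 4 was lowest and did not match its own number best), but not between groups in every pair, so groups were not paired.

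Every-library values are given for GCN2, TOR, RAPTOR1, S6K1, S6K2, both eIF2α genes and TCTP. They are also given for members that passed a test and, in each role class, for the members with the largest and the smallest polysome change after AA. The members, lists and alternatives were chosen with earlier results of these data known. Gene positions and sequences are from RefSeq TAIR10.1. Alternatives were another pseudocount, other filters on low values, TMM scaling, median centring, a replicate block and leaving out each library.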

Additional observations from a re-analysis of the deposited data

Results flagged for a closer look

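The AA change differed from that of a line, by limma's test of the difference, for 4 of the 52 genes. For eIF5A-3 the AA change exceeded the 2OX change by 1.35 in monosomes and 0.78 in polysomes, and the sextuple change by 1.06 and 0.82. For the eIF1 gene AT5G54940 these differences were 1.20, 1.29, 1.09 and 1.42. For the eIF2 β gene the difference from the sextuple mutant was 0.65 in monosomes, a call kept in 3 of 13 alternative fits. For AT1G72730 it was -0.86 in polysomes, a call kept in 12 of 13, and its difference from 2OX, -0.77, did not pass (limma adjusted p = 0.0843). The lines were grown on plates and the AA and DMSO seedlings were in liquid medium, and the part of this in the differences was not tested. The 2OX and sextuple comparisons share controls, so their values are not independent.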

How the results depend on the processing

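Of 160 counts of called genes under alternatives, 84 were 0 and stayed 0, and 61 of the other 76 kept their size within 1.5 times. After AA, the replicate block called 16 genes in monosomes (13 higher and 3 lower), keeping all 7, and 3 in polysomes, losing the eIF5 gene. It changed no call in TE or in either line. Within a fraction the numbers do not pair the groups, so these counts are a property of that fit. In TE the block instead pairs the fractions of a replicate within its group. In monosomes a pseudocount of 10 gave 8 calls and median centring 9. Leaving out 1 library gave 3 to 9 calls in monosomes and 2 to 7 in polysomes after AA, and 0 in every fit of the lines. The differences between AA and 2OX ranged over 2 to 3 calls in monosomes and 1 to 3 in polysomes, and those between AA and the sextuple mutant over 2 to 3 and 2 to 4. The median change ranged over 0.018 to 0.14 for 2OX monosomes and 0.021 to 0.16 for TE of the sextuple mutant when 1 library was left out. eIF5A-3 and the eIF1 gene AT5G54940 were called after AA in 12 of 12 alternatives in both fractions. Of 1102 values of single genes under alternatives, 44 lost a call and 2 gained one. None of the 21 changes called switched sign, whereas 23 of the 70 that were not called did under at least 1 alternative. A call requires a value far from 0 relative to its error, so this contrast follows largely from the choice. The cause of the changes under alternatives was not tested. The planned count test was not run, since whole reads could not be recovered, and depth in reads is unknown.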

Other observations

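Levels after DMSO in liquid medium were set beside those of untreated Col-0 on plates. The tables were scaled separately, so values were taken relative to the median gene, with no test. Over all genes the 5th and 95th percentiles of this difference were -1.95 and 1.97 in monosomes and -1.99 and 1.93 in polysomes (Col-0 of the 2OX tables), and eIF6A was the only member beyond them. eIF6A was the member with the largest difference, at 15708 to 19221 in monosomes after DMSO and 629 to 842 in untreated Col-0. Relative to the median gene it was 3.25 and 3.47 log2 units higher in monosomes, against the Col-0 libraries of the 2OX and sextuple tables, and 3.03 and 3.12 higher in polysomes. S6K2 was higher by 1.39 and 1.22 in monosomes and by 1.37 and 1.30 in polysomes. S6K2 lay within the all-gene range. In all, 46 and 48 of 52 members were higher in monosomes and 48 and 49 in polysomes, with medians of 0.71, 0.68, 1.05 and 0.94. Growth conditions, DMSO and scaling cannot be told apart here.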
